A study of Mus musculus with 18 samples.

Results

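The kidney clears drugs, metabolites and uremic solutes with carrier proteins of 2 gene families, and 8 genes of these families, the organic anion and cation transporters Slco1a1, Slco1a6, Slco4c1, Slc22a2, Slc22a6, Slc22a7, Slc22a8 and Slc22a12, are described here of 78239 genes in the count tables. They were taken from a list of names, each matched to 1 gene identifier, by a rule that uses no measured value, although the list was drawn up with earlier results of these data in view. Kidney RNA-seq was analysed from 6-wk-old CD-1 mice, an outbred stock, labelled wild type, in 4 groups, with 5 LP and 5 NP mice among the males and 5 LP and 3 NP mice among the females. Dams of LP (low protein) mice were fed an 8% protein diet through pregnancy and lactation, dams of NP (normal protein) mice an 18% protein diet, and all offspring received the NP diet after weaning. Every mouse, NP controls included, had received cationic ferritin for imaging of glomeruli. Males were collected 90 min and females 24 h after the last injection, so sex and this interval cannot be told apart. The RNA came from a piece of the left kidney, and the labels do not give the litter of each mouse, so p-values measure the spread between mice that may share a dam.

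Transporters of these families sit in the proximal tubule, the nephron segment just after the glomerulus. On the blood side, Slc22a6 (OAT1) and Slc22a8 (OAT3) exchange organic anions for dicarboxylates, Slc22a2 (OCT2) takes up organic cations such as metformin, and Slco4c1 (OATP4C1) takes up cardiac glycosides and thyroid hormone. On the luminal side, Slc22a12 (URAT1) reabsorbs urate and Slco1a1 (OATP1A1) carries bile salts and steroid conjugates. Slc22a7 (OAT2) is an anion carrier of liver and kidney, and Slco1a6 is a kidney member of the Slco1a gene cluster. Several of these genes are known in rodents to be under the control of sex hormones, Slco1a1 above all.

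The genes lie in few places on the mouse genome (build GRCm39, GENCODE annotation). Slco1a1 (chr6:141853007-141892690, minus strand) and Slco1a6 (chr6:142031487-142154247, minus strand) are neighbours in the Slco1a cluster, 138796 bases apart. Slc22a8 (chr19:8568476-8589541) and Slc22a6 (chr19:8595356-8605663) stand in tandem on the plus strand with 5814 bases between them. Slc22a12 (chr19:6585875-6593062, minus strand) is on the same chromosome. Slc22a2 (chr17:12803019-12847375, plus strand), Slc22a7 (chr17:46743044-46749407, minus strand) and Slco4c1 (chr1:96743995-96800111, minus strand) are the other three. The 250 bases just upstream of the annotated start are shown for 4 genes, because Slc22a8 and Slc22a6 are tandem neighbours whose levels differed between the sexes in opposite directions, Slc22a7 held a motif match, and Slco1a1 had the widest difference between males and females. They cover chr19:8568226-8568475, chr19:8595106-8595355, chr17:46749408-46749657 and chr6:141892691-141892940, are written 5′ to 3′ on the strand of the gene, and carry in capitals each match to 1 of 2 motifs searched on both strands.
Slc22a8: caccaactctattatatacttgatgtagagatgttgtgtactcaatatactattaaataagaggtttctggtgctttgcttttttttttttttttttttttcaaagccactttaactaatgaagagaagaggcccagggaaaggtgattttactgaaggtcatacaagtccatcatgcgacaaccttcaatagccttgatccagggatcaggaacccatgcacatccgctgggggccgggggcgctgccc
Slc22a6: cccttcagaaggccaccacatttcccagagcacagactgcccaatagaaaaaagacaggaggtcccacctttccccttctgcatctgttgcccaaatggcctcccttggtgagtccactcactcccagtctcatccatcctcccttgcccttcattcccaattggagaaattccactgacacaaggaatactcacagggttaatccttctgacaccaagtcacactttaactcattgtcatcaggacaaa
Slc22a7: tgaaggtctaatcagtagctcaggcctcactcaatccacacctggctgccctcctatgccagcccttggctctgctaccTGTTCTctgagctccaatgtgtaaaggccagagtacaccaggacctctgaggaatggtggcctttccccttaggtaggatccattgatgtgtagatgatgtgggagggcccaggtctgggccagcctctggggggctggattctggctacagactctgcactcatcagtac
Slco1a1: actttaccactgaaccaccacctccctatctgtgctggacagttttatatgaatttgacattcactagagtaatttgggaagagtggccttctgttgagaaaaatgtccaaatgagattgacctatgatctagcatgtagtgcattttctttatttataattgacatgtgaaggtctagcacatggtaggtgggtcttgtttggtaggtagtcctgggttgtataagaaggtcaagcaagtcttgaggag

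The motifs were AGAACA, one arm of a steroid receptor site, and TTCNNNGAA, the core of a STAT site; no letter of any match was shared between motifs. AGAACA was found upstream of 2 of the 8 genes, Slc22a7 (171 to 166 bases before the start) and Slco4c1 (230 to 225 bases before it), on the opposite strand in both, and in 14.3% of 21751 windows of the same length upstream of protein-coding genes. TTCNNNGAA was found upstream of 0 of the 8 (7.69% of windows). The windows of Slc22a8, Slc22a6 and Slco1a1 held neither.

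Each library had 14050486 to 23562411 reads on genes (median 16747972), and 28.6% to 36.1% of its reads were not assigned to a single gene. The highest share was in NP female 3, where 12.6% of reads mapped to several places, versus 5.92% to 8.91% in the other libraries. All 8 transporters had at least 10 counts in every library, the minimum for a test, and together they held 0.635% to 0.812% of the gene reads in males and 0.243% to 0.432% in females. Levels below are normalized counts, that is, counts scaled to the mean effective library size of the 18 libraries. The effective size is the library size times the TMM normalization factor of edgeR. Proximal tubule markers were abundant in every library (summed normalized counts of 10 genes, Lrp2 and Slc34a1 among them, 249857 to 413664). Adrenal markers summed to at most 66.3, and fat markers ranged from 71.9 to 3783. LP female 1, LP female 2 and NP female 3 stand apart from the other females. Their 6 interferon-induced genes summed to 1357 to 1814 versus 8907 to 37876 in the other 5, and their 5 glucocorticoid target genes to 3779 to 8116 versus 15583 to 22395. For the 8 transporters, fold changes for sex and for diet in females and the order of levels in females are therefore also given without these 3 libraries. Other fold changes are for all females unless stated. Correlations over females are not, since 5 libraries are too few for them.

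In relative abundance, compared between genes as normalized counts per kilobase of exon, the order of the transporters differed between the sexes. In males Slc22a12 was the most abundant (14837 ± 2846 per kilobase, mean ± SD, n = 10), followed by Slc22a6 (9371 ± 1550) and Slco1a6 (4981 ± 1119). Slc22a12 was above Slc22a6 in 10 of 10 males, although the 2 ranges overlapped. Slc22a7 (3668 ± 1180), Slco1a1 (3516 ± 851) and Slc22a2 (3438 ± 623) came next, with means that differed by less than their SDs. Slc22a8 (549 ± 90.9) and Slco4c1 (79.3 ± 17.9) were the lowest, each with no overlap with the gene above it.

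By this measure females had the same gene at the top and Slco4c1 at the bottom, with closer spacing between. Slc22a12 averaged 4447 ± 1469 per kilobase (n = 8), Slco1a6 3593 ± 1364, Slc22a7 2579 ± 1531, Slc22a6 2120 ± 365, Slc22a8 1762 ± 297 and Slc22a2 1235 ± 219. Every neighbouring pair in this series overlapped in range, and Slc22a12 exceeded Slco1a6 in 6 of 8 females only. Slco1a1 (15.6 on average, from 2.82 to 41.2) and Slco4c1 (13.2 ± 3.98) formed a low pair, well below Slc22a2 and indistinguishable by their spread. Without the 3 libraries that stand apart the first 6 kept this order, at 5059 (Slc22a12), 4362 (Slco1a6), 3310 (Slc22a7), 2146 (Slc22a6), 1698 (Slc22a8) and 1308 (Slc22a2) per kilobase, and the low pair stood at 13.2 (Slco4c1) and 13.1 (Slco1a1). The exon lengths of Slc22a12 and Slc22a7 include stretches shared with genes on the other strand, whose reads are not counted, so their levels per kilobase are understated. Lengths also count every annotated exon base. The annotated canonical transcript is shorter for Slc22a8 (3883 versus 6732 bases), Slco1a6 (2815 versus 3808), Slco1a1 (3969 versus 5281) and Slc22a2 (2195 versus 2921). The order of genes with close levels, the top pair of females included, therefore depends on the length used.

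**Figure D1:**
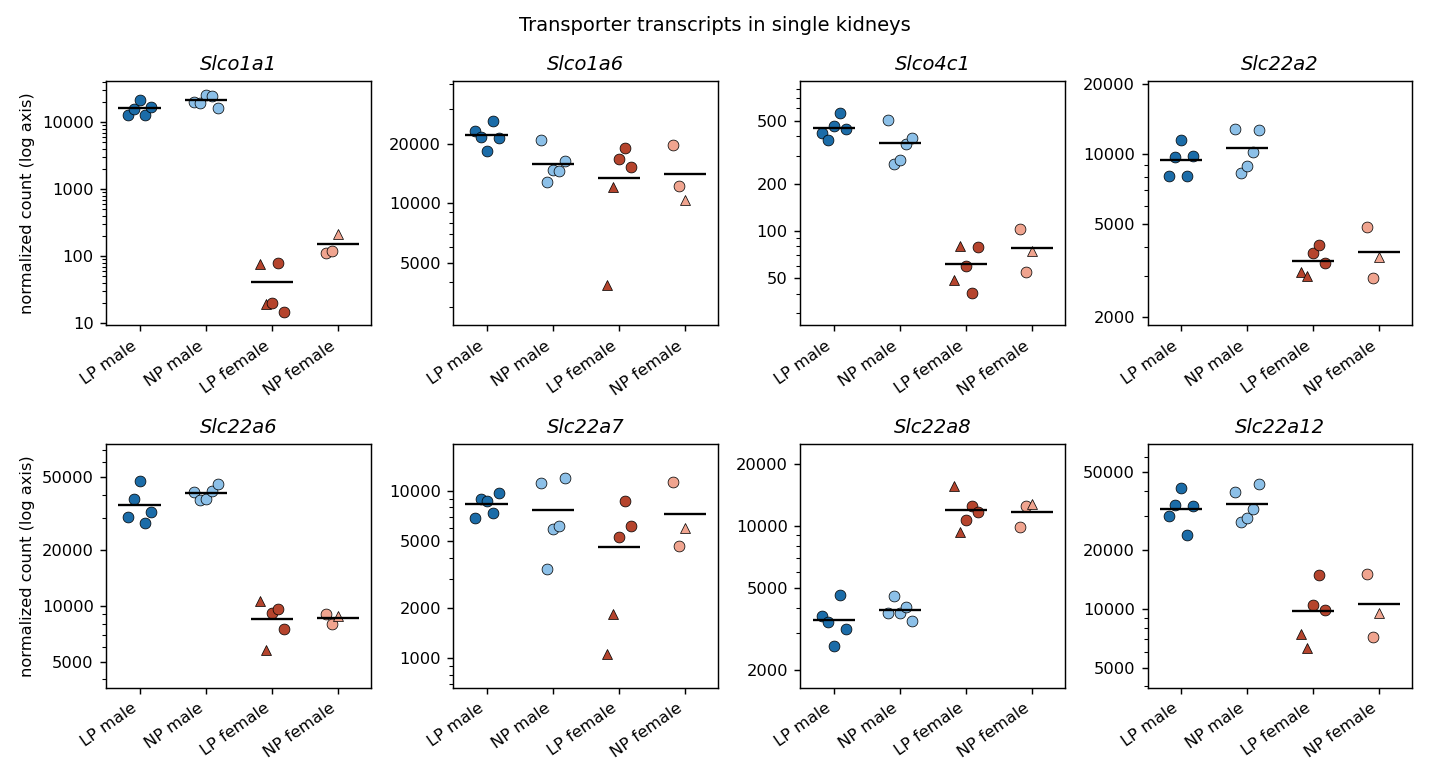
Normalized counts (vertical axes, log scale, with a range of its own in each panel) of the 8 transporters in single kidneys of the 4 groups; triangles are LP female 1, LP female 2 and NP female 3, and lines are group means. Males and females do not overlap for Slco1a1, Slco4c1, Slc22a2, Slc22a6, Slc22a8 and Slc22a12, with Slc22a8 higher in females, and they overlap for Slco1a6 and Slc22a7.

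Sex was compared in 1 model of all 4 groups, as the male minus female difference averaged over both diets. Of the 8 transporters, 6 passed the test (adjusted p under 0.05 and at least 1.5-fold): 5 were higher in males and 1, Slc22a8, was higher in females. The test was edgeR's quasi-likelihood test with Benjamini-Hochberg adjustment over 12665 genes, of which 7.22% were called higher in males and 11.5% higher in females. The median log2 fold change was 1.59 over the 8 transporters and -0.05 over all genes tested. By single libraries, every male was above every female for the same 5 genes (6.02% of all genes) and every male was below every female for Slc22a8 (2.37% of all genes). With a bulk sample, fewer cells of a type and less RNA per cell cannot be told apart.

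**Figure D2:**
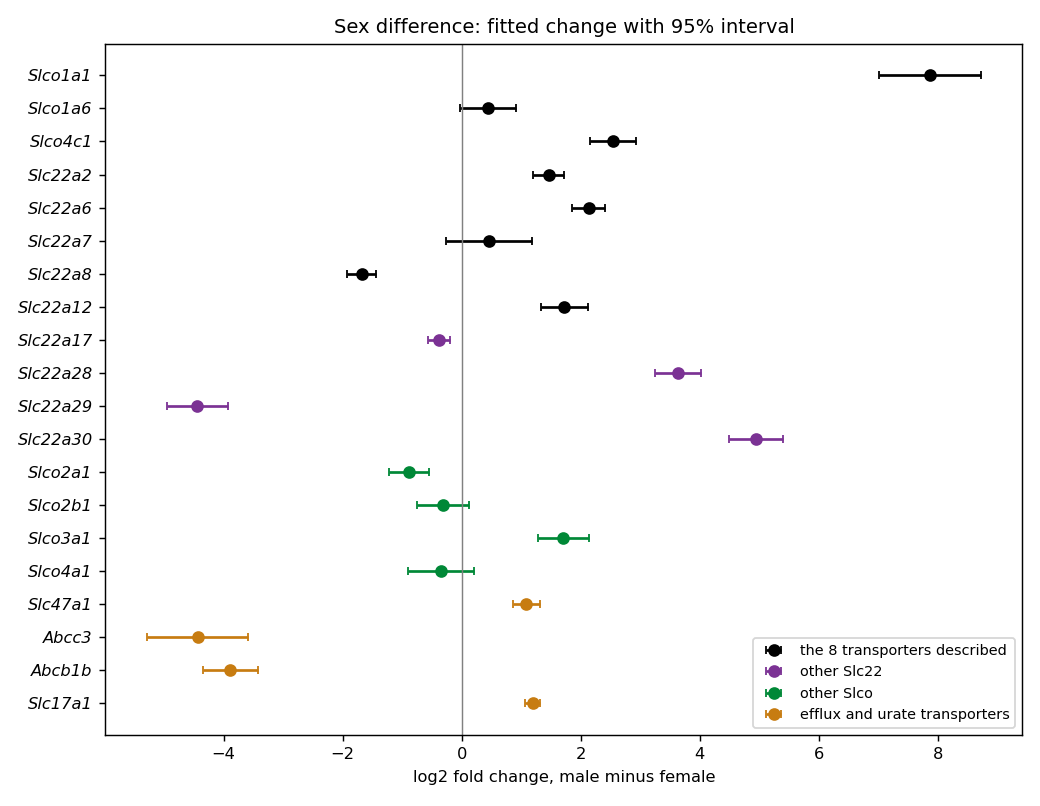
Male minus female log2 fold change (horizontal axis) with its 95% interval for the 8 transporters and for 12 other transporters named by rule. Slco1a1 lies farthest to the right at 7.86, Slc22a8 lies at -1.68, and the intervals of Slco1a6 and Slc22a7 include 0.

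The anion uptake gene Slco1a1 had the widest sex difference of the 8. Normalized counts were 12670.2, 15861, 21741, 12732 and 17075 in LP males and 20209, 19096, 25635, 24464 and 16183 in NP males. In LP females they were 77.6, 19.2, 19.7, 78.3 and 14.9, and in NP females 113, 120 and 218. The lowest male thus stood far above the highest female. The fitted fold was 233 (95% interval 129 to 421), that is 7.86 ± 0.41 (SE) on the log2 scale (edgeR adjusted p of 1.71e-10).

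Female Slco1a1 counts were few, 21 to 175 reads per library, so reads of the Y chromosome were counted in the same libraries. The 4 Y-linked genes Uty, Ddx3y, Kdm5d and Eif2s3y had 1964 to 3430 reads together in each male. In LP females 1 to 5 they had 11, 0, 2, 7 and 0 reads, or 0.328%, 0%, 0.066%, 0.273% and 0% of the male mean. In NP females 1 to 3 they had 17, 14 and 58 reads, or 0.656%, 0.499% and 2.66%.

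Female Slco1a1 expressed in the same way was 0.418%, 0.103%, 0.106%, 0.422% and 0.080% of the male mean in LP females and 0.610%, 0.647% and 1.17% in NP females. Slco1a1 and the Y-linked genes were thus low in the same 3 LP females and highest in NP female 3. In the 2 females without a Y-linked read, a count of 0 allows up to 3 reads, or 0.096% of the male mean in LP female 2 and 0.078% in LP female 5. The part of male-derived reads in the female level of Slco1a1 was not tested.

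**Figure D3:**
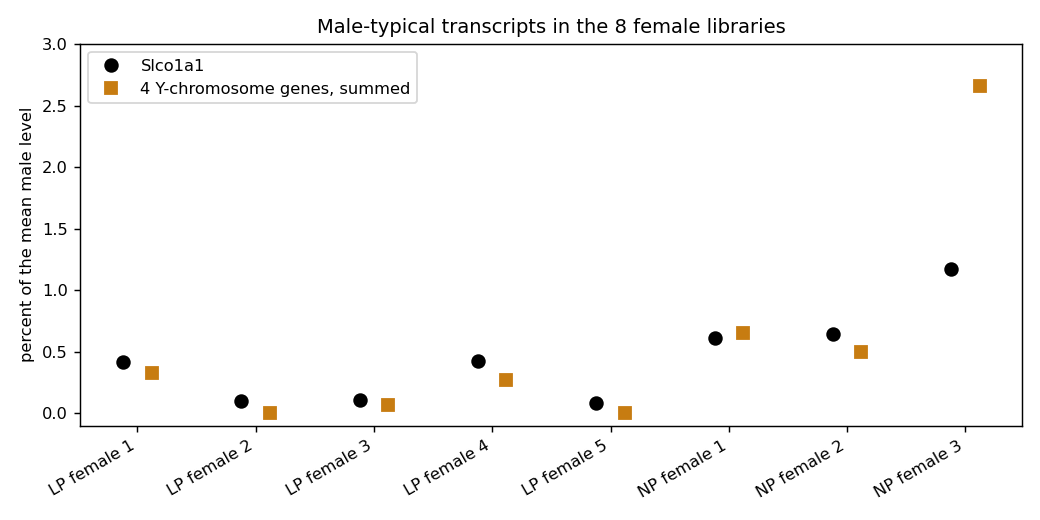
Slco1a1 (circles) and 4 Y-linked genes summed (squares) in each of the 8 female libraries, as a percent of the mean level in males (vertical axis). NP female 3 is highest in both, at 1.17% and 2.66%, and LP females 2, 3 and 5 are lowest in both.

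Slc22a6 and Slc22a8, the pair of basolateral anion exchangers, differed between the sexes in opposite directions. For Slc22a6, normalized counts were 30104, 37629, 47104, 28238 and 32201 in LP males and 41254, 37494, 37678, 41569 and 45425 in NP males. LP females had 10573, 5748, 9128, 9673 and 7501, and NP females 9027, 8025 and 8870.01. Every male was above every female, and the fitted fold was 4.40 (95% interval 3.63 to 5.33, adjusted p of 1.54e-09 by edgeR).

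For Slc22a8, normalized counts were 3631, 3402, 2605, 4617 and 3152 in LP males and 3750.4, 4568, 3760, 4041 and 3458 in NP males. LP females had 15674, 9321, 10713, 12538 and 11634, and NP females 9839, 12443 and 12740. Here every female was above every male, with a level 3.20-fold higher in females (95% interval 2.70 to 3.79, adjusted p of 6.18e-09 by edgeR). Per kilobase of exon and within a library, Slc22a6 was 10.2 to 30.1 times Slc22a8 in males (median 17.1) and 1.03 to 1.53 times Slc22a8 in females (median 1.14). This ratio uses values of 1 library only and does not depend on how libraries are scaled. It does depend on the exon lengths used, 4041 bases for Slc22a6 and 6732 for Slc22a8. Their annotated canonical transcripts have 4030 and 3883 bases. Before division by length, the female means were 8568 for Slc22a6 and 11863 for Slc22a8. Which of the pair is higher in females therefore depends on the length used.

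Slco4c1, the low-abundance carrier of cardiac glycosides, had normalized counts of 268 to 559 in males (median 402) and 40.2 to 103 in females (median 67.4). It was 5.82-fold higher in males (95% interval 4.46 to 7.59, adjusted p of 9.93e-09). The urate transporter Slc22a12 ranged from 23748 to 43727 in males and from 6281 to 14975 in females, a 3.31-fold difference (95% interval 2.51 to 4.36, adjusted p of 1.82e-06). The cation transporter Slc22a2 ranged from 8094 to 12905 in males and from 2952 to 4856 in females, a 2.75-fold difference (95% interval 2.29 to 3.31, adjusted p of 1.04e-07). For these 3 genes and the former 3, an exact two-sided permutation test over the 18 libraries gave p = 2.29e-05, the smallest it can give here.

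Slco1a6 and Slc22a7 did not pass the test. Slco1a6, which lies beside Slco1a1 in the genome, had a log2 fold change of 0.44 ± 0.22 (adjusted p of 0.131 by edgeR; 95% interval of the fold 0.980 to 1.89). Its normalized counts were 12887 to 25925 in males (median 19582) and 3873 to 19739 in females (median 13758), and the exact two-sided permutation test gave p = 0.0239. Slc22a7 had a log2 fold change of 0.46 ± 0.34 (adjusted p of 0.310 by edgeR; 95% interval of the fold 0.833 to 2.28), with 3421 to 11991 in males and 1063 to 11314 in females (exact permutation p = 0.0820). Both intervals run from a slightly higher female level to a higher male level, and neither shows equal levels in the sexes. Without the 3 libraries that stand apart, the log2 fold changes were 0.17 and 0.12.

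The sex difference was also seen within each maternal diet. In LP mice alone the log2 fold changes were 8.60 for Slco1a1, 2.87 for Slco4c1, 2.04 for Slc22a6, 1.74 for Slc22a12, 1.44 for Slc22a2 and -1.78 for Slc22a8. In NP mice alone they were 7.15, 2.23, 2.25, 1.72, 1.49 and -1.57 in the same order. All 6 passed the test in both, and Slco1a6 and Slc22a7 passed in neither. Without the 3 libraries that stand apart, the 6 were 8.14, 2.53, 2.12, 1.55, 1.38 and -1.64.

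Markers of nephron segments moved with sex to some extent. Of 10 proximal tubule markers, 1 (Keg1) was called higher in males and 1 (Gatm) higher in females, and their summed level was 342738 to 413664 in males and 249857 to 400409 in females. Markers of the last proximal segment, S3, summed to 64720 to 86443 in males and 8430 to 20130 in females. Of these 4, Slc7a13, Cyp7b1 and Atp11a were called higher in males and Slc5a10 was not called (log2 fold change -0.19). The 4 log2 fold changes ran from -0.19 to 7.50. In females Slc7a13 was 0.125% to 1.99% of the male mean and Cyp7b1 0.306% to 1.66%. The sum of these genes therefore cannot stand for the amount of S3. Podocyte markers were called higher in females in 4 of 4 genes, distal and collecting duct markers in 5 of 7 and thick ascending limb markers in 2 of 4. With the mean level of the proximal tubule markers as a covariate, the log2 fold changes of the 6 transporters were 7.87 (Slco1a1), 2.58 (Slco4c1), 2.14 (Slc22a6), 1.75 (Slc22a12), 1.47 (Slc22a2) and -1.69 (Slc22a8). The covariate leaves out the S3 markers, and in males the transporters ran with or against it (r from -0.866 for Slc22a2 to 0.374 for Slc22a8). It therefore cannot stand for the amount of proximal tubule. The part of any segment, the proximal tubule included, in these differences was not tested.

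Other transporters of the 2 families, from lists drawn up for the kidney, also differed between the sexes in both directions. Of 20 other Slc22 genes 14 could be tested, and 3 were called higher in males, 3 higher in females and 8 were not called. Slc22a30 and Slc22a28, members of a rodent cluster of OAT-like genes, were 30.8-fold and 12.4-fold higher in males (adjusted p of 4.16e-11 and 1.33e-10 by edgeR). Slc22a29 of the same cluster was 21.7-fold higher in females (adjusted p of 2.94e-10), with normalized counts of 607 to 1394 in females and 22.6 to 116 in males. The genes of this cluster resemble each other and could share reads, so the split between them is uncertain. Slc22a17, a receptor for the iron carrier lipocalin, had a log2 fold change of -0.39 and was below the 1.5-fold minimum.

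Of 10 other Slco genes 4 could be tested. Slco3a1 was 3.27-fold higher in males (adjusted p of 5.37e-06) and the prostaglandin transporter Slco2a1 was 1.84-fold higher in females (adjusted p of 0.000276), while Slco2b1 (-0.31) and Slco4a1 (-0.35) did not pass. Slco4a1 passed with limma-voom alone (-0.74, adjusted p of 0.0238). Slco1a4, Slco1a5, Slco1a7 and Slco1b2, the close relatives of Slco1a1 and Slco1a6, were below the count minimum in some library and were not tested.

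Transporters that complete the secretory and urate routes differed between the sexes in both directions as well. Of 12 tested, 4 were called higher in males, 5 higher in females and 3 were not called. The luminal cation exporter Slc47a1 (MATE1), which works in series with Slc22a2, was 2.13-fold higher in males (adjusted p of 3.9e-07), and the luminal anion and urate transporter Slc17a1 was 2.28-fold higher in males (adjusted p of 2.09e-10). The efflux pumps Abcc3 and Abcb1b were 21.6-fold and 14.8-fold higher in females (adjusted p of 2.08e-07 and 4.54e-10). Slc47a2 and Slc17a2 were below the count minimum and not tested. Slc17a2, of the phosphate and urate carrier family, had normalized counts of 0 to 2.91 in males and 35.6 to 332 in females.

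In a list of 8 coupling and scaffold genes, 2 were called higher in females and 0 higher in males. The 2 were the dicarboxylate carrier Slc13a2 (1.74-fold) and the scaffold partner Pdzk1ip1 (1.67-fold). The other 6, Slc13a3 among them, were not called. Whether each listed gene serves the transporters described here was not tested. Slc13a1 (log2 fold change -0.44) and the scaffold Nherf1 (0.45) were below 1.5-fold. Of 9 regulators and receptors 8 could be tested, and the oestrogen receptor Esr1 was 2.63-fold higher in males (adjusted p of 5.76e-06). The tubular transcription factor Hnf4a (0.34) and the growth hormone receptor Ghr (0.55) were below 1.5-fold. The prolactin receptor Prlr was under the count minimum in some males and was not tested. Its normalized counts were 7.35 to 98.7 in males (median 37.8) and 1200 to 3618 in females (median 2146), with no overlap.

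Maternal diet was compared within each sex, the question of the study. In males 0 of the 8 transporters were called by edgeR, DESeq2 or limma-voom. Of 13181 genes, edgeR called 0.0379%, DESeq2 15 genes and limma-voom 6 genes. At an unadjusted p under 0.05, 2 of the 8 passed by edgeR, Slco1a6 and Slco1a1, as did 506 of all genes. The median log2 fold change was -0.13 over the 8 and -0.0039 over all genes. No transporter separated the LP males from the NP males without overlap, as 0.645% of all genes did.

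Slco1a6 had the largest estimate in LP males. Normalized counts were 23162, 21621, 18342, 25925 and 21269 in LP males versus 20821, 12887, 14721, 14509 and 16434 in NP males. One NP male, replicate 1, was above the lowest LP male, and the other four were below every LP male. The log2 fold change was 0.48 ± 0.13, or 1.39-fold (95% interval 1.13 to 1.70), with an adjusted p of 0.9996 over all genes by edgeR. The exact two-sided permutation test for this gene alone gave p = 0.0159.

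Slco1a1, its neighbour, lay in the other direction in males, with the values given above. The log2 fold change was -0.40 ± 0.17 (95% interval -0.76 to -0.03), or 1.32-fold lower in LP males. The adjusted p was as for Slco1a6, and the exact permutation test gave p = 0.0714. Over the 10 males, log2 levels of Slco1a1 and Slco1a6 had a Pearson r of -0.735 (Spearman rho -0.758), as a description over libraries that differ in diet, and over the 8 females r was -0.193. The other 6 transporters had log2 fold changes between -0.21 (Slc22a6) and 0.33 (Slco4c1), and each of their 95% intervals included 0. For Slc22a2, Slc22a6, Slc22a8 and Slc22a12 those intervals exclude a 1.5-fold difference in either direction.

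**Figure D4:**
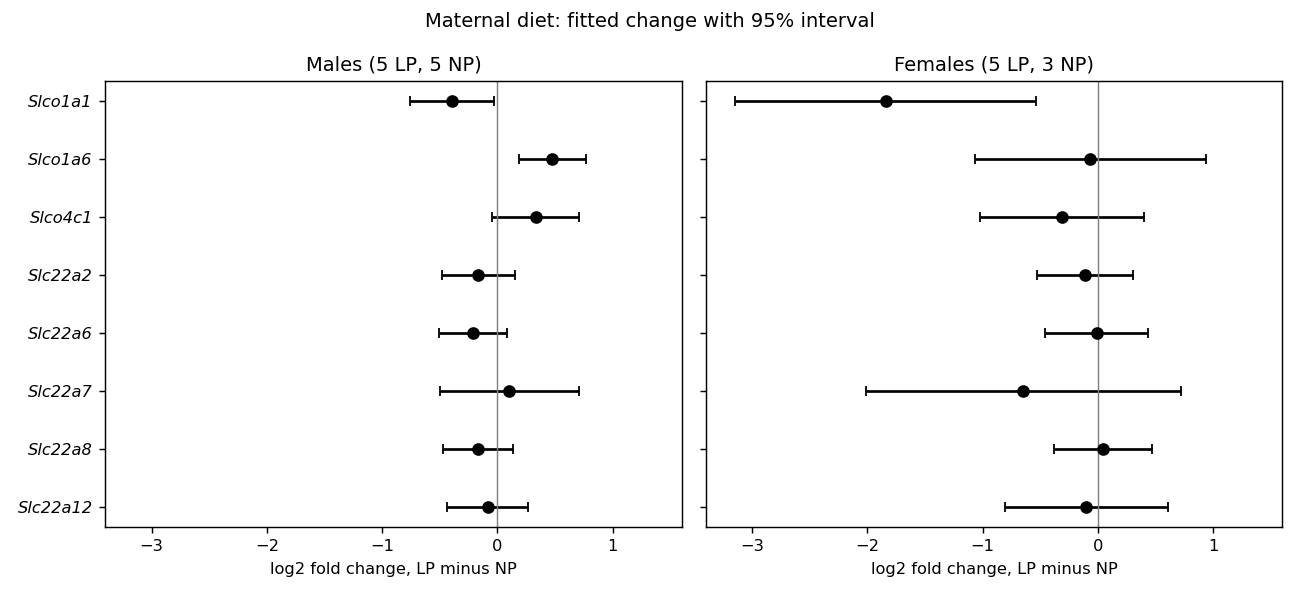
LP minus NP log2 fold change (horizontal axis) with its 95% interval for the 8 transporters in males (left) and females (right). Intervals in females are wider, and in both sexes the interval of Slco1a1 lies below 0, from -0.76 to -0.03 in males and from -3.15 to -0.54 in females.

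In females 0 of the 8 transporters were called by edgeR, DESeq2 or limma-voom. Of 13510 genes, edgeR called 0%, DESeq2 9 genes and limma-voom 0 genes. By edgeR 1 of the 8, Slco1a1, had an unadjusted p under 0.05 (564 of all genes). All 5 LP females were below all 3 NP females in Slco1a1, a separation seen in 1.24% of all genes. The log2 fold change was -1.84 ± 0.58 (95% interval -3.15 to -0.54), or 3.58-fold lower in LP females, with an adjusted p of 0.886 by edgeR and an exact two-sided permutation p = 0.0357. These are the libraries with 21 to 96 Slco1a1 reads in LP females and 108 to 175 in NP females, and the Y-linked reads given above, 0 to 11 in LP and 14 to 58 in NP females, were divided in the same way. The part of those reads in the diet difference was not tested. Without the 3 libraries that stand apart the estimate was -1.66 (adjusted p of 0.972 by edgeR), with 3 LP and 2 NP females left.

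Slc22a7, the liver and kidney anion carrier, had an estimate in females of -0.65 ± 0.61 (adjusted p of 0.893 by edgeR). Normalized counts were 1063, 1853, 5349, 8756 and 6157 in LP females and 11314, 4664 and 6031 in NP females, so the groups overlapped and the 2 lowest values were LP females 1 and 2, which stand apart. Without the 3 libraries that stand apart it was -0.23 ± 0.38 (adjusted p of 0.972), it was -0.17 without NP female 1, the highest value, and over each single library left out it ranged down to -0.995. The other 6 estimates lay between -0.31 (Slco4c1) and 0.04 (Slc22a8), and without the 3 libraries between -0.38 (Slco4c1) and 0.096 (Slco1a6). The diet effect did not pass the test of a difference between the sexes for any of the 8 (0.0158% of 12665 genes did). Slco1a1 came nearest, at -1.45 ± 0.55 for the female effect minus the male effect (adjusted p of 0.977 by edgeR), and it was the 1 transporter with an unadjusted p under 0.05 (509 of all genes). DESeq2 and limma-voom also called 0 of the 8 (4 and 7 of all genes). Of the other Slc22, Slco, efflux and urate, coupling, and regulator genes, edgeR called 0 in either diet comparison and 0 in the interaction.

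Single kidneys varied within a sex by amounts that differed between the transporters. In males the coefficient of variation was lowest for Slc22a6 (16.5%) and Slc22a8 (16.5%) and highest for Slc22a7 (32.2%). In females it was 16.9% for Slc22a8, 17.2% for Slc22a6, 59.3% for Slc22a7 and 83.4% for Slco1a1. LP female 1, LP female 2 and NP female 3 had Slco1a6 levels of 3873, 12146 and 10379.9, below the range of the other 5 females (12288 to 19739) by a small margin for LP female 2. For the other 7 transporters the 3 libraries overlapped the other females, although LP females 1 and 2 had the 2 lowest values of Slc22a7. The share of all genes that separate these 3 libraries from the other females was not counted, so the separation is not particular to Slco1a6 as far as shown.

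**Figure D5:**
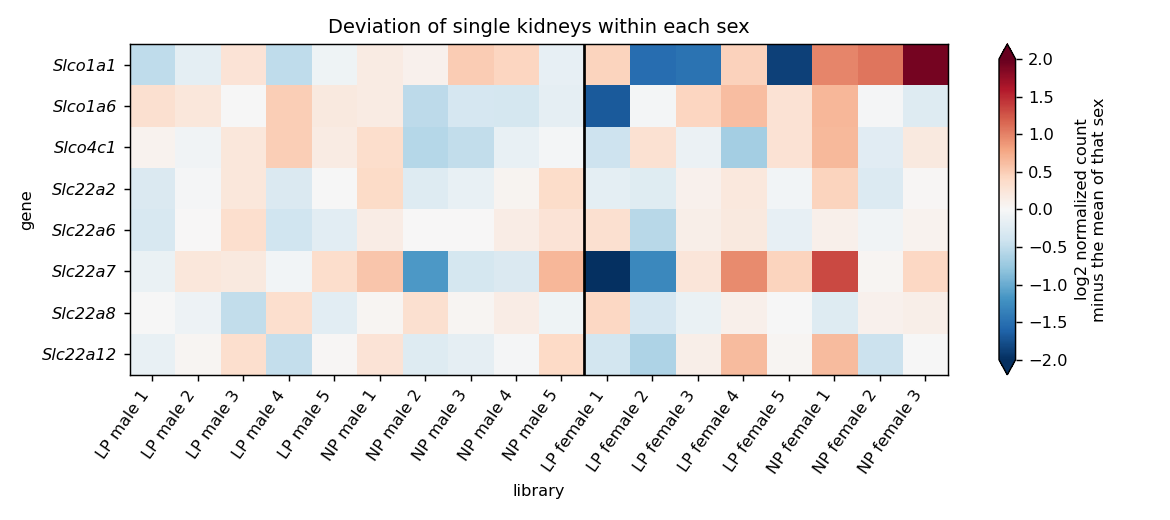
Deviation of each library (columns) from the mean of its sex in log2 normalized counts (colour, clipped at 2 units) for the 8 transporters (rows); the vertical line divides males from females. Slc22a2 and Slc22a12 deviate together from library to library, and LP female 1 is lowest of the females in Slco1a6 and Slc22a7.

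Some transporters moved together from kidney to kidney. Slc22a2 and Slc22a12, on different chromosomes, had a Pearson r of 0.930 over 10 males and 0.946 over 8 females. Slc22a7 followed both (r of 0.716 and 0.683 in males, 0.756 and 0.816 in females). Slc22a6 was close to Slc22a2 in males (r = 0.793) and less so in females (r = 0.422), and Slc22a6 and Slc22a8 had r values of -0.451 in males and 0.673 in females. The points in these descriptions share library depth, tissue composition and diet group. In males, Slc22a2 and Slc22a12 ran against the mean of the proximal tubule markers (r of -0.866 and -0.806), and in females the values were -0.524 and -0.299. Against the mean of the glucocorticoid target genes they had r of -0.771 and -0.666 in males and, with the opposite sign, 0.465 and 0.620 in females. The female values include the 3 libraries that stand apart by low levels of these same target genes.

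The genes whose levels followed a transporter most closely in both sexes were ranked by the smaller of the r values over 10 males and over 8 females among 12665 genes, the other transporters included. Nearest to Slc22a2 were the brush border enzyme Ggt1 (smaller r 0.945) and Sec11a, a signal peptidase subunit (0.931), and nearest to Slc22a12 were the tyrosine catabolic enzyme Fah (0.957) and Slc22a2 itself (0.930). Serpinf2, the gene of the plasmin inhibitor, and the taurine and GABA carrier Slc6a13 came nearest to Slc22a7 (0.914 and 0.897). Slco1a1 was followed by the acyl-CoA synthetase Acsm3 (0.794), itself higher in males by 8.02 on the log2 scale, and by Ptpn23 (0.743). For Slco1a6 these were Dcdc2a (0.826) and Ppp4r4 (0.793), for Slco4c1 Slitrk6 (0.799) and Tnfrsf26 (0.732), for Slc22a6 Myl6b (0.780) and Rnpepl1 (0.757), and for Slc22a8 Map3k9 (0.772) and Ndst2 (0.763).

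The counts of 2 transporters are reduced by overlapping genes, since the libraries do not keep strand and a read in 2 genes was not counted. Slc22a12 overlaps exons of Nrxn2, and Slc22a7 overlaps the non-coding gene Gm36541, both on the opposite strand. The sum of the stranded columns, in which such reads are counted, was 143% of the unstranded column for Slc22a12 and 132% for Slc22a7, and at most 100.1% for the other 6. With that sum, the sex difference was 1.77 for Slc22a12 and 0.49 for Slc22a7 (adjusted p of 0.294). Exact copies of 50-base stretches in other genes made up 2.22% of the Slco1a1 transcript and 5.60% of the Slco1a6 transcript (shared with Slco1a genes), and 0% of those of Slco4c1 and Slc22a6.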

How the data were processed

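The members and gene lists were chosen with earlier results of these data known. Poly(A) RNA of 18 kidneys was sequenced without strand information. The authors used STAR (version not given in the sources used here), build GRCm39 and GENCODE vM36, and deposited raw counts per gene for each library. The unstranded column was used. The study excluded 1 animal re-sexed from its RNA and also eliminated samples of low RNA quantity or quality. It reported 3 NP females.

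Counts were tested with edgeR 4.0.16 (TMM, quasi-likelihood) after dropping genes under 10 counts in any library of the fit, with Benjamini-Hochberg adjustment over all genes tested. A gene was called at an adjusted p under 0.05 and 1.5-fold, and the diet by sex interaction at the adjusted p alone. Males and females were fitted separately for diet, and all 4 groups together for sex and the interaction. Exact two-sided permutation tests used log2(normalized count + 1). The edgeR script was tested on simulated data. Alternatives used DESeq2 1.42.0 and limma 3.58.1. Symbols, exons and upstream sequences came from GENCODE on GRCm39 (78168 of 78239 identifiers matched). Named genes were the 8 transporters, up to 4 genes with the smallest adjusted p for sex per transporter, coupling and regulator list, and the 2 genes most like each transporter. Keg1, Gatm, Prlr, Slc17a2, the S3 markers and the Y-linked genes were added after their values were seen. Reads shared between genes leave a count uncertain. Depth limits precision mainly for Slco1a1 and Slco4c1 in females, and counts of 0 cover counting error only.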

Additional observations from a re-analysis of the deposited data

How the results depend on the processing

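The counts of transporters called were unchanged under every alternative run: 0 for diet in males (19 alternatives), 0 for diet in females (18), 0 for the interaction (26) and 6 for sex (29), each of these 6 with the direction given above. The alternatives were DESeq2 size factors, no filter on low counts, DESeq2, limma-voom with quality weights, the replicate block, a proximal tubule marker covariate, no fold minimum, all groups in 1 model, 1 diet only, leaving out the 3 female libraries that stand apart, leaving out each library, and, added after seeing the data, the sum of the strand columns.

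Diet estimates near 0 changed sign. In males Slc22a12 was 0.015 with limma-voom and 0.064 with the marker covariate. Leaving out 1 library in turn gave a range of -0.19 to 0.012 for Slc22a12 and -0.085 to 0.32 for Slc22a7. In females, Slc22a6 was 0.038 without a filter and 0.051 without the 3 libraries. Slco1a6 was 0.096 and Slc22a12 0.092 without them. With the marker covariate the values were 0.0031 (Slco1a6), 0.019 (Slco4c1), 0.053 (Slc22a2), -0.086 (Slc22a8) and 0.15 (Slc22a12), and with the strand sum Slc22a12 was 0.065. Leaving out 1 library gave -0.25 to 0.27 for Slco1a6, -0.25 to 0.12 for Slc22a2, -0.093 to 0.11 for Slc22a6, -0.065 to 0.14 for Slc22a8 and -0.30 to 0.26 for Slc22a12. For the interaction, Slc22a12 was 0.020 without a filter, 0.17 without the 3 libraries, 0.25 with the covariate and 0.13 with the strand sum, and Slc22a2 was -0.21 with limma-voom. Their ranges with 1 library left out were -0.24 to 0.31 and -0.11 to 0.26. The cause was not tested. Adjusted p of Slco1a1 for diet in females ranged from 0.222 to 0.9998 over the alternatives and from 0.186 to 0.9999 with 1 library left out.

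Deviations of same-numbered libraries of the 2 diets had correlations of -0.29 to 0.31 in males and -0.59 to -0.38 in females. The pairs are few and include the females that stand apart. These values therefore cannot tell whether a number marks anything shared. The replicate block called 0 transporters for diet in either sex and for the interaction, and 6 for sex. In females it moved Slc22a7 from -0.65 to -1.61, Slco1a6 from -0.066 to -0.52, Slc22a12 from -0.10 to -0.36, Slc22a2 from -0.12 to -0.18, Slc22a6 from -0.012 to -0.071 and Slc22a8 to -0.0015, each with an adjusted p of 0.9997. Slco1a1 moved from -1.84 to -2.21 and Slco4c1 from -0.31 to -0.29, with the same adjusted p. Over all genes it called 2 rather than 5 for diet in males and 0 rather than 2 for the interaction.

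Among other genes named for sex, Pdzk1ip1 was not called without the 3 libraries (-0.47), without NP female 3 alone (-0.55, under 1.5-fold) or in NP mice alone (-0.76, adjusted p of 0.065). Slco4a1 passed with limma-voom (-0.74, adjusted p of 0.0238). Ghr passed 1.5-fold without LP female 4 (0.61), without NP female 1 (0.66) or without a filter (0.60), and Slc13a1 without the 3 libraries (-0.72). With no fold minimum Slc22a17, Nherf1, Slc13a1, Hnf4a and Ghr passed. Depth limits Slco1a1 and Slco4c1 in females most.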
